A study of Arabidopsis thaliana with 72 samples.

Results

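Sugar leaves a photosynthesising leaf and enters cells through families of membrane carriers, and RNA of 10 of their genes was followed here in Arabidopsis thaliana leaves whose plasmodesmata, the channels between neighbouring cells, were closed with an inducible construct. The genes were taken by their locus identifiers from a matrix of 33602 genes: SWEET11 (AT3G48740), SWEET12 (AT5G23660), SWEET15 (AT5G13170), SWEET4 (AT3G28007), SWEET16 (AT3G16690), SWEET17 (AT4G15920), SUC2 (AT1G22710), STP1 (AT1G11260), STP4 (AT3G19930) and STP13 (AT5G26340). All 10 identifiers were found, and all 10 genes passed the filter on low counts.

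As background, sucrose made in the mesophyll moves from cell to cell through plasmodesmata towards the veins, and in Arabidopsis it is then released into the cell wall space and taken up again by the phloem. SWEET proteins are carriers that let sugar pass down its gradient. SWEET11 and SWEET12 release sucrose from phloem parenchyma cells, and SUC2 is the proton-driven sucrose carrier that loads companion cells. SWEET15 is a sucrose exporter known from senescing leaves and seeds, SWEET4 is a plasma membrane hexose carrier of the veins, and SWEET16 and SWEET17 sit in the vacuolar membrane, where SWEET17 carries fructose. STP1, STP4 and STP13 are proton-driven hexose importers of the plasma membrane, STP1 a glucose carrier active in guard cells among others, STP4 a carrier of sink tissues and wounded or infected leaves, and STP13 a carrier linked to defence and cell death.

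The groups were leaves of icals3m (LexA::icals3m), PD-plug (LexA::PD-Plug) and the wild type Col-0, each painted with 20 µM β-estradiol 17-acetate or with 0.1% DMSO as the mock, and harvested after 12, 24, 48 or 72 h. Both lines carry an estradiol-inducible construct that closes plasmodesmata, per the series' design text, and estradiol itself was painted on Col-0 too. Leaves of both treatments also received 0.01% Silwet L-77. All plants had grown for 5 weeks on medium with 1% sucrose, with 10 h of light per day. There were 3 libraries in each of the 24 groups, each made from 2 leaves of 4 plants, and whether a line is 1 transformant is not given in the sources used here.

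The construct checks followed the labels. CALS3, the callose synthase gene whose mutant form icals3m carries, stood at 1447 to 5857 CPM (counts scaled to a common library size) in the 12 icals3m libraries with estradiol, against 168 to 285 CPM in the 12 with DMSO and 79.2 to 120.2 CPM in Col-0 with DMSO. The mCherry row had 77044 to 694617 counts in PD-plug with estradiol and 138 to 3261 counts in PD-plug with DMSO, and at most 20 counts in any library of the other genotypes. The libraries held 33207020 to 55367880 counts, and replicates of a group correlated at r of 0.968 to 0.981 across genes. Of 20 marker genes of phloem, mesophyll, epidermis and guard cells, none stood at 0 in every library. At this depth that is no check of leaf identity. One library stood apart in how its counts compared between the deposited matrices: PD-plug, 48 h, estradiol, replicate 1 had 1.37 times as many counts in the main matrix as in the STAR matrix, against 1.90 to 2.07 times in the others.

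Unless said otherwise, levels are CPM on TMM-scaled library sizes, each value is 1 library, fold changes are log2 of estradiol over DMSO within a genotype, and a gene is said to have risen or fallen where the edgeR quasi-likelihood adjusted p was under 0.05 over 21241 genes. At each time the estradiol effect in a line was also compared with that in Col-0, as the log2 difference between their fold changes. Comparisons of either line with Col-0 share the Col-0 libraries. CPM is not divided by transcript length, so that it compares groups and not genes.

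**Figure D1:**
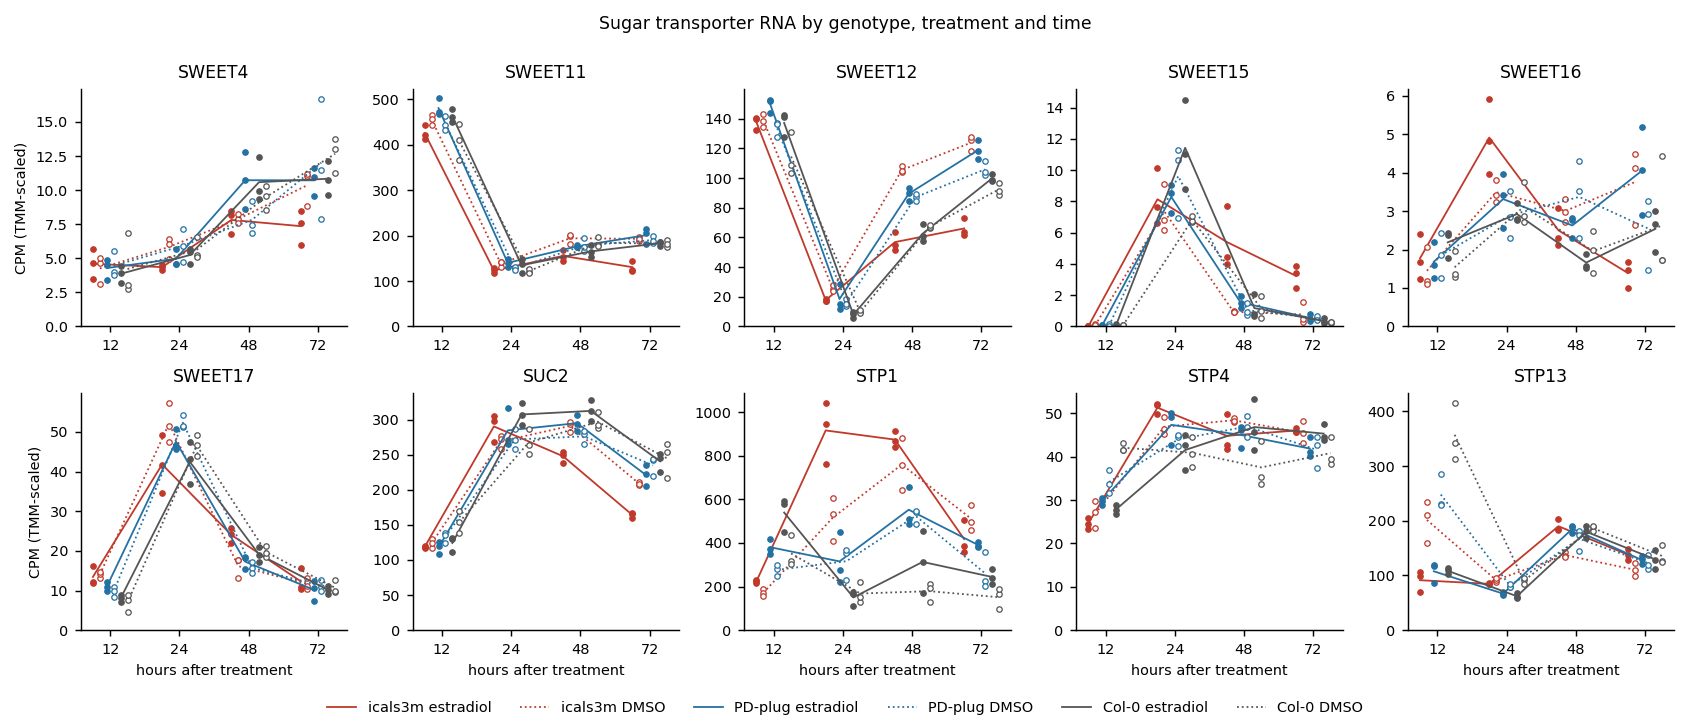
Level of each of the 10 transporter genes in every library, in CPM, against hours after treatment (times evenly spaced, groups set slightly apart sideways). Filled points and solid lines are estradiol, open points and dotted lines are DMSO, lines join means of 3 libraries, and colours give the genotype. SWEET12 with estradiol in icals3m lies under its DMSO line at 48 and 72 h, and STP1 in DMSO stands higher in icals3m than in Col-0 from 24 h on.

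In icals3m the sucrose exporters of the veins and the sucrose loader were lower with estradiol from 48 h on, while SWEET15 was higher. At 48 h, 6 of the 10 genes changed in icals3m: SWEET11, SWEET12 and SUC2 fell, and SWEET15, SWEET17 and STP13 rose. At 72 h SWEET11, SWEET12, SUC2 and SWEET16 fell, and SWEET15 and STP13 rose. Over all tested genes, 18.3% changed at 48 h and 21.5% at 72 h. None of the 10 changed in PD-plug at either time, where 13.3% and 2.65% of all genes did, and the smallest adjusted p of the 10 genes was 0.184 (SWEET4) at 48 h and 0.247 (STP1) at 72 h. In the STAR matrix, the other matrix deposited with the study, 3 of the 10 genes passed in icals3m at 48 h (SWEET12, SWEET15 and STP13) and 3 at 72 h (SWEET11, SWEET12 and SUC2).

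The promoters of the 3 sucrose carriers that fell together, and of SWEET15, which moved the other way, are shown because these genes carry the pattern. Each sequence is the 250 bases before the annotated gene start in RefSeq's TAIR10.1 annotation, 5′ to 3′ on the gene's strand, and all 4 genes lie on the minus strand. Capitals mark the motifs searched on both strands: the G-box CACGTG, the W-box core TTGAC, which reads GTCAA from the opposite strand, the evening element AAAATATCT and the element ACTCAT, which do not overlap one another here.
SWEET11 (chr3:18054833-18055082): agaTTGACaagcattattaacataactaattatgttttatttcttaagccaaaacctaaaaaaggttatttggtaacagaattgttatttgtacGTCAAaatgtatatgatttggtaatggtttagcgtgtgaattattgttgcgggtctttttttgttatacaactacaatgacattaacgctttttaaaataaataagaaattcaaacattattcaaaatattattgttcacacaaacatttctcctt
SWEET12 (chr5:7973996-7974245): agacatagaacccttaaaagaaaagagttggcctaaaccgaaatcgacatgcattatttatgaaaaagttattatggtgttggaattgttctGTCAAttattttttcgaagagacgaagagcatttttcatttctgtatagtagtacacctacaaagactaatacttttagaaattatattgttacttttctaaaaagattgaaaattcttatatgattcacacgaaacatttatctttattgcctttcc
SUC2 (chr1:8033157-8033406): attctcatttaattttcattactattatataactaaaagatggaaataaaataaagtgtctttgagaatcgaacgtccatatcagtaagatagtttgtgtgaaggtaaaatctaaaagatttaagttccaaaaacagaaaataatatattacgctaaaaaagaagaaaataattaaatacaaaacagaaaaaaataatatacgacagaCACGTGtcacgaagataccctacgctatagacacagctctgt
SWEET15 (chr5:4183355-4183604): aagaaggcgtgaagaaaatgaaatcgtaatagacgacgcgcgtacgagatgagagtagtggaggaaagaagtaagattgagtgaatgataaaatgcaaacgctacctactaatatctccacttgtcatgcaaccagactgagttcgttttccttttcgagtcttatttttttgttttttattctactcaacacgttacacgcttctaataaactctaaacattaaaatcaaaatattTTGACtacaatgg
The windows of SWEET11, SWEET12 and SWEET15 hold 2, 1 and 1 W-box cores, and that of SUC2 holds 1 G-box. Of 27443 promoters of the same length, 44.9% hold a W-box core, 6.49% a G-box, 2.36% an evening element and 12.3% ACTCAT. A match is a description of the letters and not a binding site.

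SWEET12 was the exporter with the larger fall. At 72 h it had 61.5, 63.6 and 73.1 CPM with estradiol, against 125, 118 and 128 CPM with DMSO in icals3m. No library with estradiol reached the lowest one with DMSO (log2 change -0.91 ± 0.15 SE, adjusted p = 3.16e-06 by edgeR). PD-plug at the same time had 118, 126 and 113 CPM with estradiol, against 102, 104 and 111 CPM with DMSO, and Col-0 had 98.4, 98.1 and 103 CPM with estradiol, against 88.5, 91.5 and 97.0 CPM with DMSO. In both of these genotypes every library with estradiol stood above those with DMSO, without passing the test, although in the STAR matrix the groups overlapped in both. The icals3m effect differed from the Col-0 effect (log2 difference -1.02 ± 0.20 SE, adjusted p = 0.000399 by edgeR) and from the PD-plug effect (log2 difference -1.07 ± 0.20 SE, adjusted p = 0.000403 by edgeR).

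The fall of SWEET12 was already present at 48 h, with 54.7, 51.8 and 64.0 CPM with estradiol, against 104, 108 and 105 CPM with DMSO (log2 change -0.89 ± 0.15 SE, adjusted p = 6.95e-06 by edgeR). The groups did not overlap. PD-plug had 90.1, 84.8 and 93.5 CPM with estradiol, against 87.3, 89.4 and 84.8 CPM with DMSO at this time, and Col-0 had 57.9, 60.7 and 69.0 CPM with estradiol, against 66.6, 66.7 and 68.1 CPM with DMSO. The icals3m effect at 48 h again differed from that of Col-0 (log2 difference -0.79 ± 0.20 SE, adjusted p = 0.00587 by edgeR) and of PD-plug (log2 difference -0.93 ± 0.20 SE, adjusted p = 0.00272 by edgeR). At 24 h, when SWEET12 was at its lowest in every genotype, it also fell within icals3m, with 17.4, 18.6 and 17.1 CPM with estradiol, against 25.4, 23.8 and 27.9 CPM with DMSO (log2 change -0.54 ± 0.15 SE, adjusted p = 0.0213 by edgeR). That early call was lost when icals3m 24 h estradiol replicate 1 or 3 or DMSO replicate 3 was left out (adjusted p up to 0.124), and at 24 h the difference from Col-0 did not pass (-0.24 ± 0.22, adjusted p = 0.783).

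Where SWEET12 stood against the wild type differed between treatments. With DMSO, icals3m had 1.21, 2.63, 1.57 and 1.34 times the mean CPM of Col-0 at 12, 24, 48 and 72 h. With estradiol the ratios of icals3m to Col-0 were 1.00, 2.24, 0.909 and 0.663. At 48 h the level reached with estradiol was thus close to that of Col-0, and the fall there was measured from a mock level above the wild type. At 72 h it stood below Col-0. The mock difference held over the mean of the 4 times (log2 change 0.69 ± 0.07 SE, adjusted p = 2.10e-10 by edgeR), and PD-plug with DMSO was above Col-0 too (log2 change 0.38 ± 0.07 SE, adjusted p = 0.00044 by edgeR).

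In the STAR matrix SWEET12 at 72 h had 50.2, 55.5 and 54.3 CPM with estradiol in icals3m, against 99.7, 94.2 and 95.8 CPM with DMSO. In Col-0 it had 79.5, 64.9 and 82.2 CPM with estradiol, against 69.4, 74.8 and 80.4 CPM with DMSO, which overlapped. PD-plug overlapped as well, with 87.88, 103.2 and 95.88 CPM with estradiol, against 81.25, 80.34 and 90.6 CPM with DMSO. The fall within icals3m kept its call there at 48 and 72 h, as did the difference from PD-plug (adjusted p = 0.0408 and 0.049). The difference from Col-0 did not (log2 difference -0.76 with adjusted p = 0.135 at 48 h and -0.86 with adjusted p = 0.0871 at 72 h). No library left out changed any of these 48 and 72 h calls in the main matrix.

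SWEET11, the partner exporter, fell by less at 48 and 72 h. At 72 h it had 123, 124 and 144 CPM with estradiol, against 188, 197 and 193 CPM with DMSO in icals3m (log2 change -0.56 ± 0.07 SE, adjusted p = 5.31e-09 by edgeR). The 3 libraries with estradiol were below every other library of that time. PD-plug had 207, 214 and 182 CPM with estradiol, against 198, 185 and 188 CPM with DMSO, and Col-0 had 186, 187 and 177 CPM with estradiol, against 191, 174 and 182 CPM with DMSO. The icals3m effect differed from the Col-0 effect (log2 difference -0.57 ± 0.10 SE, adjusted p = 2.88e-05 by edgeR) and from the PD-plug effect (log2 difference -0.64 ± 0.10 SE, adjusted p = 6.47e-06 by edgeR). Both differences kept their call in every alternative run, the STAR matrix and each library left out included. At 48 h SWEET11 had 144, 153 and 169 CPM with estradiol, against 182, 199 and 202 CPM with DMSO (log2 change -0.32 ± 0.07 SE, adjusted p = 0.000385 by edgeR), and there the difference from Col-0 did not pass (-0.17 ± 0.10, adjusted p = 0.293). Col-0 also stood lower with estradiol, without passing the test (-0.16 ± 0.07, adjusted p = 0.173). The 48 h fall within icals3m was lost in the STAR matrix (adjusted p = 0.0705). The longest stretch of transcript that SWEET11 and SWEET12 share without a mismatch is 29 bases.

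**Figure D2:**
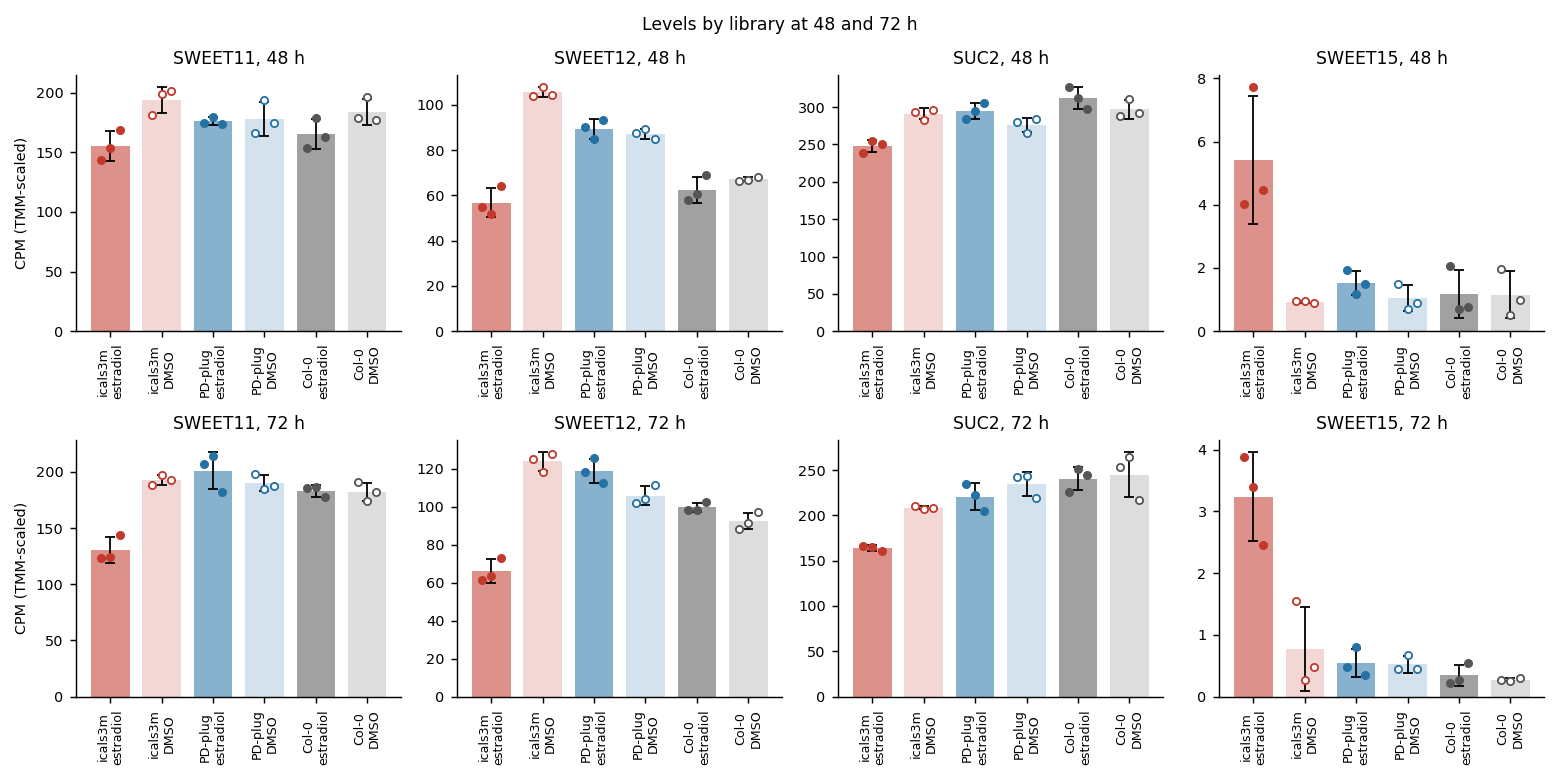
CPM of SWEET11, SWEET12, SUC2 and SWEET15 at 48 h (top) and 72 h (bottom) in icals3m, PD-plug and Col-0, estradiol left of DMSO. Bars are means, error bars the SD, and points the 3 libraries. At 72 h the 3 icals3m libraries with estradiol are the lowest for SWEET11, SWEET12 and SUC2 and the highest for SWEET15.

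SUC2, the loader of companion cells, moved in the same direction by a smaller amount. At 72 h it had 166, 166 and 160.3 CPM with estradiol, against 211, 207 and 208 CPM with DMSO (log2 change -0.35 ± 0.07 SE, adjusted p = 0.000126 by edgeR). The groups did not overlap, and all 3 libraries with estradiol were below all 12 libraries of PD-plug and Col-0 at that time. PD-plug had 235, 223 and 205 CPM with estradiol, against 242, 243 and 219 CPM with DMSO, and Col-0 had 226, 251 and 245 CPM with estradiol, against 253, 265 and 217 CPM with DMSO. The difference between the icals3m effect and the Col-0 effect passed the test (difference -0.32 ± 0.10, edgeR adjusted p = 0.0242). It was lost without Col-0 72 h estradiol replicate 2 or 3, Col-0 72 h DMSO replicate 3 or icals3m 72 h estradiol replicate 3 (adjusted p up to 0.139) and in the STAR matrix (adjusted p = 0.0598). From the PD-plug effect SUC2 did not differ past the test at 72 h (-0.26 ± 0.10, adjusted p = 0.125).

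At 48 h SUC2 had 238, 254 and 250.2 CPM with estradiol, against 294, 282 and 297 CPM with DMSO in icals3m (log2 change -0.23 ± 0.07 SE, adjusted p = 0.0133 by edgeR). It was lower against the Col-0 effect (log2 difference -0.31 ± 0.10 SE, adjusted p = 0.029 by edgeR) and against the PD-plug effect (log2 difference -0.33 ± 0.10 SE, adjusted p = 0.0368 by edgeR). These 48 h calls were the less stable ones: 3 of 6, 7 of 12 and 8 of 12 libraries left out ended them, with adjusted p up to 0.0652, 0.082 and 0.102. None of the 3 passed in the STAR matrix, and the difference from PD-plug did not pass without the filter on low counts either. With DMSO SUC2 in icals3m was slightly under Col-0 over the 4 times (log2 change -0.14 ± 0.03 SE, adjusted p = 0.00196 by edgeR), the opposite side from SWEET12. With estradiol it had 0.793 and 0.682 times the Col-0 level at 48 and 72 h. With DMSO the ratios were 0.805, 1.01, 0.980 and 0.852 at 12, 24, 48 and 72 h.

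Markers of 4 leaf cell types or tissues were measured beside the carriers. No list was made for phloem parenchyma, the cells of SWEET11 and SWEET12. The 7 phloem markers (AHA3, AKT2, APL, PP2-A1, SEOR1, SEOR2 and CALS7) summed to 335 to 374 CPM with estradiol in icals3m at 72 h, against 405 to 423 CPM with DMSO. AHA3, the companion cell proton pump, and PP2-A1, a phloem lectin, were the 2 of 7 that fell (-0.25 ± 0.07 and -0.22 ± 0.07). At 48 h the phloem sum was 439.6 to 478 CPM with estradiol, against 440.4 to 452 CPM with DMSO, and none of the 7 fell while AKT2 rose. The 4 mesophyll markers summed to 19080 to 20580 CPM with estradiol, against 28330 to 30390 CPM with DMSO, at 72 h, with 3 of 4 lower. At 48 h that sum was 28250 to 33140 CPM with estradiol, against 35840 to 39620 CPM with DMSO, with 2 lower and 1 higher. Epidermal markers summed to 130.4 to 145.5 CPM with estradiol at 72 h, against 188 to 198 CPM with DMSO, and 3 of 4 fell. Guard cell markers summed to 44.0 to 53.4 CPM with estradiol, against 55.8 to 60.0 CPM with DMSO, and 1 of 5 fell. Over all tested genes, 21.5% changed at 72 h and 18.3% at 48 h in icals3m. In PD-plug at 72 h the mesophyll sum was 25160 to 26810 CPM with estradiol, against 27400 to 32120 CPM with DMSO. The epidermal sum there was 168.7 to 182.5 CPM, against 184.7 to 194.3 CPM. At 48 h the PD-plug mesophyll sum was 32150 to 37050 CPM with estradiol, against 38360 to 39970 CPM with DMSO. The other PD-plug sums overlapped at both times. The Col-0 mesophyll sum overlapped at 72 h and was higher with estradiol at 48 h. The part of these markers in the transporter results was not tested. In whole leaves, fewer cells of a type and less RNA per cell cannot be told apart.

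SWEET15 rose in icals3m from a low level. At 48 h it had 4.02, 7.73 and 4.47 CPM with estradiol, against 0.956, 0.95 and 0.892 CPM with DMSO (log2 change 2.53 ± 0.54 SE, adjusted p = 0.000423 by edgeR), and at 72 h 3.87, 3.39 and 2.45 CPM with estradiol, against 1.54, 0.267 and 0.482 CPM with DMSO (log2 change 2.06 ± 0.54 SE, adjusted p = 0.00325 by edgeR). The groups did not overlap at either time. PD-plug at 48 h had 1.95, 1.19 and 1.48 CPM with estradiol, against 1.51, 0.715 and 0.899 CPM with DMSO, and Col-0 had 2.05, 0.689 and 0.778 CPM with estradiol, against 1.97, 0.518 and 0.976 CPM with DMSO. The difference from the Col-0 effect passed at 48 h (log2 difference 2.49 ± 0.76 SE, adjusted p = 0.0207 by edgeR). It was lost without Col-0 48 h estradiol replicate 2 or 3, Col-0 48 h DMSO replicate 1 or icals3m 48 h estradiol replicate 2 (adjusted p up to 0.138) and in the STAR matrix (adjusted p = 0.102), where the log2 difference was larger, at 3.55. At 72 h the difference from Col-0 did not pass (1.74 ± 0.89, adjusted p = 0.222). From the PD-plug effect SWEET15 did not differ past the test at 48 h (1.97 ± 0.75, adjusted p = 0.122) or 72 h (2.00 ± 0.80, adjusted p = 0.148). The 48 h difference passed in 2 of 6 alternatives, DESeq2 and counts divided by 4 (adjusted p = 0.0496 and 0.031). The 72 h rise within icals3m missed the threshold in the STAR matrix (log2 change 2.15, adjusted p = 0.131), and its log2 change was 3.12 without icals3m 72 h DMSO replicate 1.

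Counts of SWEET15 were small outside 24 h, between 0 and 293 per library, and 10 of the 72 libraries had none. At 12 h it was at or near the floor of 3 counts, which is at most 0.0903 CPM, so that no fold change is given for that time. SWEET4, the hexose carrier of the veins, did not pass any test of estradiol in the main fit. At 72 h it had 7.60, 8.50 and 5.98 CPM with estradiol, against 8.85, 11.0 and 11.2 CPM with DMSO in icals3m (-0.50 ± 0.22, adjusted p = 0.103). This fall passed with only the 6 libraries compared (log2 change -0.49, adjusted p = 0.0419 by edgeR).

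The vacuolar carriers moved at different times. SWEET17, the fructose carrier, had 25.7, 24.4 and 22.0 CPM with estradiol, against 17.6, 17.6 and 13.3 CPM with DMSO in icals3m at 48 h (log2 change 0.57 ± 0.16 SE, adjusted p = 0.00737 by edgeR). The groups did not overlap, yet the call was lost without icals3m 48 h DMSO replicate 3 (adjusted p = 0.0812) and in the STAR matrix (adjusted p = 0.73). The difference from Col-0 did not pass (0.62 ± 0.23, adjusted p = 0.0604). In 2 of 6 alternatives that difference passed, with DESeq2 and with counts divided by 4 (adjusted p = 0.0435 and 0.0418). SWEET16 had 1.69, 1.48 and 1.01 CPM with estradiol, against 2.65, 4.49 and 4.12 CPM with DMSO in icals3m at 72 h (log2 change -1.43 ± 0.32 SE, adjusted p = 0.000427 by edgeR). PD-plug moved the other way without passing the test, with 4.06, 5.17 and 2.89 CPM with estradiol, against 2.91, 1.46 and 3.26 CPM with DMSO, and Col-0 had 3.00, 2.66 and 1.95 CPM with estradiol, against 1.74, 1.72 and 4.42 CPM with DMSO.

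The effect on SWEET16 at 72 h in icals3m was below that in PD-plug (log2 difference -2.11 ± 0.44 SE, adjusted p = 0.00115 by edgeR), a call that no single library ended, and below that in Col-0 (log2 difference -1.38 ± 0.44 SE, adjusted p = 0.0307 by edgeR). The comparison with Col-0 was lost when any of 7 of its 12 libraries was left out (adjusted p up to 0.104). Without Col-0 72 h DMSO replicate 3, the high library of its group, the difference was -1.99. SWEET16 had 51 to 283 counts per library in the main matrix, and in the STAR matrix none of these 3 calls passed (adjusted p = 0.444 within icals3m, 0.475 against PD-plug and 0.775 against Col-0).

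**Figure D3:**
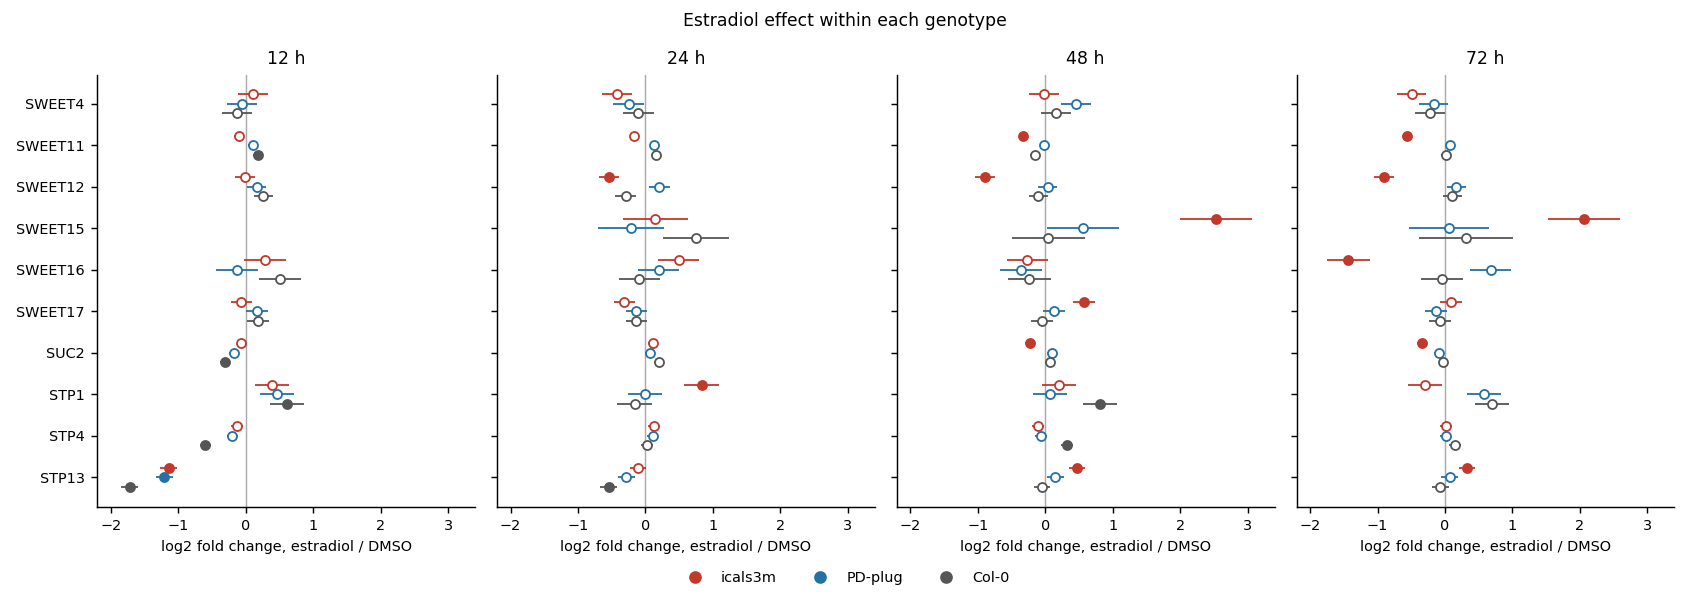
log2 fold change of estradiol over DMSO for the 10 genes in icals3m, PD-plug and Col-0 at 12, 24, 48 and 72 h, with the SE as bars. Filled points had an adjusted p under 0.05. SWEET15 is not drawn at 12 h, where its counts are at the floor. Most filled points at 48 and 72 h are those of icals3m, and STP13 at 12 h is filled in all 3 genotypes.

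The hexose importers followed another course. At 12 h STP13 fell with estradiol in all 3 genotypes, the wild type included. It had 106, 69.0 and 98.7 CPM with estradiol, against 211, 234 and 159.7 CPM with DMSO in icals3m (log2 change -1.14 ± 0.12 SE, adjusted p = 1.40e-09 by edgeR). In PD-plug it had 119.7, 85.3 and 118 CPM with estradiol, against 230.2, 228 and 286 CPM with DMSO (log2 change -1.20 ± 0.12 SE, adjusted p = 7.00e-11 by edgeR), and in Col-0 103, 109.8 and 113 CPM with estradiol, against 416, 314 and 342 CPM with DMSO (log2 change -1.72 ± 0.12 SE, adjusted p = 3.94e-16 by edgeR). The 9 libraries with estradiol lay between 69.0 and 119.7 CPM, and the 9 with DMSO between 159.7 and 416 CPM. The ranges with estradiol overlapped between the 3 genotypes, and with DMSO the lowest Col-0 library was above the highest of either line. The icals3m effect was smaller than the Col-0 effect (log2 difference 0.58 ± 0.17 SE, adjusted p = 0.0472 by edgeR), a call that 8 of its 12 libraries ended when left out. It did not pass without the filter on low counts, with a replicate block or in the STAR matrix (adjusted p = 0.0614, 0.0519 and 0.189). In PD-plug the difference just missed the threshold (0.51 ± 0.17, adjusted p = 0.0501). It passed in 3 of 6 alternatives: DESeq2, RLE size factors and counts divided by 4 (adjusted p = 0.0268, 0.0458 and 0.0382).

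At 48 h STP13 had the opposite direction in icals3m, with 203, 185 and 182 CPM with estradiol, against 142, 135 and 134 CPM with DMSO (log2 change 0.47 ± 0.12 SE, adjusted p = 0.00356 by edgeR). Col-0 had 169, 191 and 180.3 CPM with estradiol, against 188, 181 and 190.3 CPM with DMSO, so that icals3m with estradiol stood at the level of the wild type and icals3m with DMSO below it. The difference from the Col-0 effect passed (log2 difference 0.52 ± 0.17 SE, adjusted p = 0.0329 by edgeR), and was lost when any of 7 of its 12 libraries was left out (adjusted p up to 0.0815) and in the STAR matrix (adjusted p = 0.111). At 72 h STP13 rose within icals3m by a margin near the threshold (log2 change 0.32 ± 0.12 SE, adjusted p = 0.0496 by edgeR), which 4 of the 6 libraries left out ended (adjusted p up to 0.24). It just missed the threshold without the filter on low counts (adjusted p = 0.0607), with a replicate block (adjusted p = 0.0525) and in the STAR matrix (log2 change 0.36, adjusted p = 0.0524).

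Replicates of STP1 spread widely. In icals3m at 24 h it had 761, 947 and 1042 CPM with estradiol, against 531, 605 and 410.1 CPM with DMSO (log2 change 0.83 ± 0.25 SE, adjusted p = 0.0386 by edgeR). The groups did not overlap, but 4 of the 6 libraries left out ended the call (adjusted p up to 0.22), and the difference from Col-0 did not pass (0.99 ± 0.36, adjusted p = 0.283). With only the 6 libraries compared this 24 h call was lost too (adjusted p = 0.0955). In Col-0 STP1 rose with estradiol at 12 h, with 579, 591 and 449.6 CPM with estradiol, against 439, 316 and 302 CPM with DMSO (log2 change 0.62 ± 0.25 SE, adjusted p = 0.0494 by edgeR), and at 48 h, with 172, 312 and 456 CPM with estradiol, against 131, 210.4 and 195 CPM with DMSO (log2 change 0.81 ± 0.26 SE, adjusted p = 0.0436 by edgeR). The 48 h groups in Col-0 overlapped. At 12 h both lines also stood higher with estradiol without passing the edgeR test (icals3m 0.39, adjusted p = 0.333, and PD-plug 0.46, adjusted p = 0.183). Both lines passed with only the 6 libraries compared (adjusted p = 0.00639 and 0.00432). Neither effect differed from the Col-0 effect past the test at 12 h (adjusted p = 0.835 and 0.902). Both Col-0 calls were ended by 4 of the 6 libraries left out (adjusted p up to 0.176 and 0.412). Without the filter on low counts neither passed (adjusted p = 0.0638 and 0.0532), and the 48 h call was lost in the STAR matrix as well (adjusted p = 0.0547). With only the 6 libraries compared the 48 h call was lost by more (adjusted p = 0.474). The 12 h call was lost with RLE size factors (adjusted p = 0.0612).

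With DMSO alone STP1 differed between the genotypes in a way that depended on the harvest. At 48 h it had 643, 757 and 880.2 CPM in icals3m, 486, 542 and 545 CPM in PD-plug and 131, 210.4 and 195 CPM in Col-0. Every library of the lines was above every Col-0 library. At 12 h the order was the other way, with 187, 172 and 155 CPM in icals3m, 279, 300.2 and 251 CPM in PD-plug and 439, 316 and 302 CPM in Col-0. As ratios of means, icals3m to Col-0 was 0.486, 3.07, 4.25 and 3.39 at 12, 24, 48 and 72 h, and PD-plug to Col-0 was 0.786, 1.88, 2.93 and 1.73. The mean over the 4 times was higher in icals3m (log2 change 1.11 ± 0.13 SE, adjusted p = 2.59e-09 by edgeR) and in PD-plug (log2 change 0.73 ± 0.13 SE, adjusted p = 0.000103 by edgeR); the change of sign between times was not tested. AT1G11270, which overlaps STP1 on the other strand, had 117 to 551 counts per library, at most 5.44% of those of STP1, and whether the counting used strand is not given in the sources used here.

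STP4 passed the test of estradiol against DMSO in Col-0 alone. At 12 h it fell there (log2 change -0.60 ± 0.09 SE, adjusted p = 7.40e-08 by edgeR). The Col-0 libraries had 28.9, 27.8 and 26.9 CPM with estradiol, against 43.3, 41.5 and 41.5 CPM with DMSO. At 48 h STP4 rose in Col-0 (log2 change 0.32 ± 0.09 SE, adjusted p = 0.0147 by edgeR). It then had 41.7, 45.6 and 53.3 CPM with estradiol, against 33.6, 43.6 and 35.4 CPM with DMSO. The 48 h rise was lost without Col-0 48 h estradiol replicate 3 or DMSO replicate 1 or 3 (adjusted p up to 0.194). It was also lost with only the 6 libraries compared (adjusted p = 0.209). Neither line passed the test at these times. The effects of the lines differed from that of Col-0, upward at 12 h (icals3m 0.47 ± 0.12, adjusted p = 0.0193; PD-plug 0.40 ± 0.12, adjusted p = 0.0262) and downward at 48 h (icals3m -0.43 ± 0.12, adjusted p = 0.0104; PD-plug -0.38 ± 0.12, adjusted p = 0.0478). With DMSO at 12 h STP4 had 29.7, 27.3 and 23.5 CPM in icals3m and 31.8, 33.8 and 37.0 CPM in PD-plug, both below the mock of Col-0. Of these 4 differences only that of PD-plug at 12 h kept its call in the STAR matrix, and 1, 7, 3 and 8 of the 12 libraries left out ended them in the order given. For PD-plug at 48 h the library that stood apart between the matrices was one of the 8.

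Counted over the comparisons, the 10 genes gave these calls. In icals3m 1 gene changed at 12 h and 2 at 24 h, where 17.2% and 6.48% of all tested genes did. In PD-plug 1 gene changed at 12 h and none at 24 h (27.1% and 0.49% of all genes). In Col-0 the counts were 5 at 12 h, 1 at 24 h, 2 at 48 h and none at 72 h (38.6%, 0.984%, 6.67% and 0.0141% of all genes). The 5 at 12 h were STP13, STP4 and SUC2, which fell, and SWEET11 and STP1, which rose. The rise of SWEET11 was small (0.18 ± 0.07, adjusted p = 0.0286). It was lost in the STAR matrix, with DESeq2, with RLE size factors and with only the 6 libraries compared (adjusted p up to 0.24), and without Col-0 12 h estradiol replicate 1 or 3 or DMSO replicate 3 (up to 0.264). SUC2 in Col-0 at 12 h had 129.7, 112 and 131 CPM with estradiol, against 138, 155 and 169 CPM with DMSO (log2 change -0.31 ± 0.07 SE, adjusted p = 0.000256 by edgeR).

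Set against the Col-0 effect, the icals3m effect differed for 2, 0, 5 and 4 of the 10 genes at 12, 24, 48 and 72 h, beside 3.16%, 0.259%, 13.4% and 11.3% of all genes. The PD-plug effect differed for 1, 0, 1 and 0 of them, beside 8.3%, 0.033%, 5.56% and 0.0942%. Between the lines, 0, 0, 2 and 3 genes differed, beside 1.19%, 0.358%, 5.16% and 5.35%. At 72 h all 4 genes past the test against Col-0 (SWEET11, SWEET12, SWEET16 and SUC2) were lower, beside 6.29% of all genes that were, and the median of the 10 log2 differences was -0.30, against -0.01 over all genes. For PD-plug at 48 h the median of the 10 was 0.14.

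**Figure D4:**
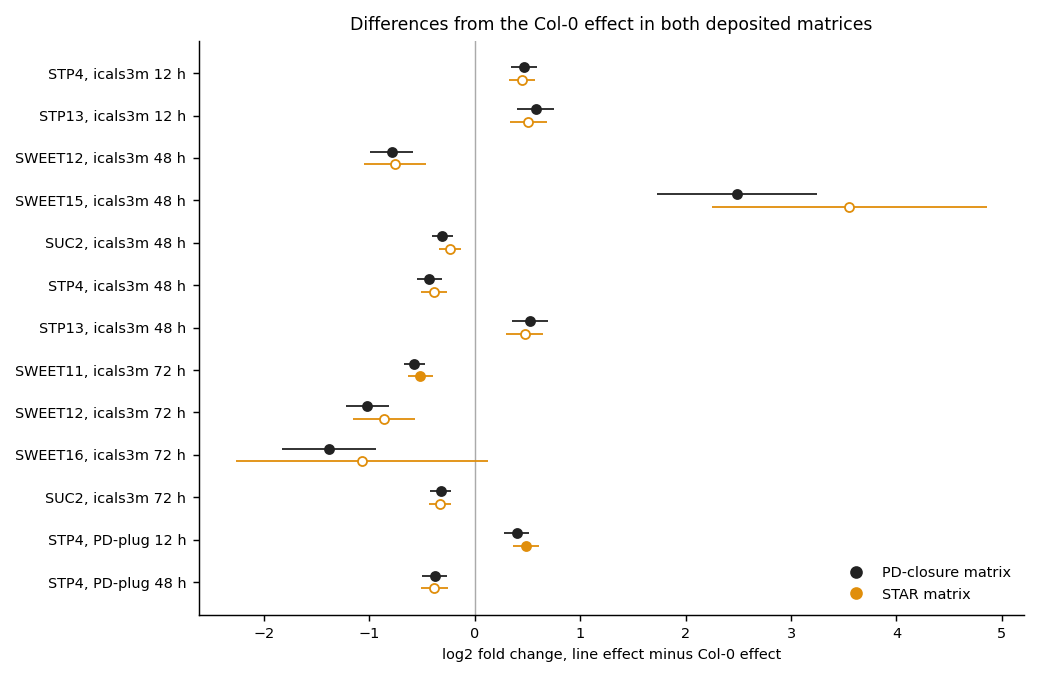
Difference between a line's estradiol effect and the Col-0 effect (log2, with the SE as bars) for the 13 cases past the threshold in the PD-closure matrix, beside the same cases in the STAR matrix. Filled points had an adjusted p under 0.05. Every pair of points lies on the same side of 0, and SWEET11 at 72 h in icals3m and STP4 at 12 h in PD-plug are filled in both.

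How firmly these differences stand depended on the matrix. Of the 11 differences between icals3m and Col-0, 1 (SWEET11 at 72 h) kept its call in the STAR matrix, in which all 11 had the same sign. That matrix also gave fewer calls over all genes, with 1256 at 48 h and 910 at 72 h for icals3m against Col-0, where the main matrix gave 2840 and 2392. The share of counts that the matrices give to these genes differed as well. For the 6 SWEET genes the main matrix held 2.5 to 5.2 times as many counts as the STAR matrix, and for SUC2 and the 3 STP genes 1.22 to 1.41 times. Levels of SWEET genes and of the other carriers therefore compare differently in each.

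Per kilobase of transcript, Col-0 leaves with DMSO had most RNA of SWEET11 at 12 h (293.9 ± 28.3 CPM per kb, SD, n = 3), followed by STP1 (142 ± 30.3) and STP13 (138 ± 20.5), which overlapped each other. At 24 h SUC2 came first (130.4 ± 8.52 CPM per kb) and SWEET11 next (87.6 ± 3.21), whose libraries overlapped those of STP1 (67.7 ± 18.8). At 48 h SUC2 and SWEET11 overlapped (145 ± 6.03 and 133 ± 7.86 CPM per kb), as they did at 72 h. In the STAR matrix SUC2 was first at 24, 48 and 72 h, and at 24 h STP1 was above SWEET11 without overlap (98.2 ± 22.6 and 64.7 ± 1.76 CPM per kb). SWEET15 and SWEET16 were among the 3 lowest at each time in the main matrix.

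In mock-treated leaves most of the carriers also changed between harvests. A time after painting is also a harvest, and the 2 cannot be told apart. Plants had 10 h of light per day, and time of day may also differ between the 12 h harvest and the others. From 12 to 24 h, 9 of the 10 genes changed in the 9 DMSO libraries per time (73.7% of all genes), then 8 by 48 h (48.1%) and 7 by 72 h (29.7%). SWEET12 with DMSO had a median of 134.5 CPM at 12 h, 15.3 CPM at 24 h, 87.3 CPM at 48 h and 104.0 CPM at 72 h over the 3 genotypes. SWEET11 had medians of 443 CPM, then 129 CPM, 182 CPM and 188 CPM. Both exporters were thus lowest at 24 h, by -3.02 ± 0.09 and -1.76 ± 0.04 on the log2 scale against 12 h.

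SWEET15 and SWEET17 had the opposite shape. SWEET15 ranged from 0 to 0.138 CPM at 12 h and from 6.15 to 11.3 CPM at 24 h, and had medians of 0.950 CPM at 48 h and 0.438 CPM at 72 h. SWEET17 had medians of 9.88 CPM, 51.2 CPM, 17.6 CPM and 10.8 CPM at 12, 24, 48 and 72 h. SUC2 was lowest at 12 h, with medians of 136 CPM, 271 CPM, 288 CPM and 219 CPM. SWEET4 rose at each step, with medians of 4.0 CPM, 5.87 CPM, 8.23 CPM and 11.3 CPM. In the STAR matrix only the step of SWEET4 to 48 h passed, and the steps to 24 h (log2 change 0.18, adjusted p = 0.488, against 0.42 ± 0.13 in the main matrix) and to 72 h (0.48, adjusted p = 0.119) did not. Over the means of the 24 groups, log2 CPM of SWEET15 and SWEET11 had a Pearson r of -0.93 and that of SWEET17 and SWEET12 of -0.91, values that share the harvest and the libraries and describe mainly this course.

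Genes elsewhere in the genome followed some of the carriers closely over the 24 group means. The closest to SWEET12 was MED10B (r = 0.977), to SUC2 HEME1 (r = 0.982), to SWEET17 CYSD2 (r = 0.977) and to SWEET15 AT1G62510 (r = 0.987), with GBSS1, the granule-bound starch synthase, among the 3 closest (r = 0.973). The closest to SWEET11 was AT5G23380 (r = 0.978). Of the 10 genes SWEET16 had the lowest best value (MSRB6, r = 0.841). These are descriptions over 24 points that share their harvests.

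Apart from SWEET12, mock levels of a few carriers also differed between line and wild type. Over the mean of the 4 times, icals3m with DMSO differed from Col-0 for 6 of the 10 genes (19.1% of all genes) and PD-plug for 3 (6.18%). In icals3m SWEET11 and SWEET17 were higher (0.13 ± 0.03 and 0.25 ± 0.08) and STP13 was lower (-0.39 ± 0.06). For SWEET17 the ratio of icals3m to Col-0 with DMSO was 2.00, 1.12, 0.82 and 1.09 at 12, 24, 48 and 72 h, so that its mean difference came mostly from 12 h and had the other direction at 48 h. The SWEET17 call was lost in the STAR matrix (adjusted p = 0.348) and without Col-0 12 h DMSO replicate 1 or icals3m 72 h DMSO replicate 1 (up to 0.0666). In PD-plug STP13 was lower too (-0.25 ± 0.06), and the 3 genes that differed there, SWEET12, STP1 and STP13, had the same direction as in icals3m.

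Relatives and neighbours of the carriers in sugar metabolism were counted from lists of whole families. Over all tested genes, the icals3m effect differed from Col-0 for 3.16%, 0.259%, 13.4% and 11.3% at 12, 24, 48 and 72 h. For PD-plug these shares were 8.3%, 0.033%, 5.56% and 0.0942%. An absence of calls in lists this short is not read as a result. Of the other SWEET genes 5 of 11 could be tested, and none differed between icals3m and Col-0 at any time. SWEET1, a glucose carrier, had a lower effect in PD-plug at 12 h (log2 difference -0.75 ± 0.22 SE, adjusted p = 0.0213 by edgeR), with 6.69, 8.21 and 6.67 CPM with estradiol, against 7.98, 7.63 and 7.92 CPM with DMSO, while Col-0 had 10.3, 9.90 and 8.28 CPM with estradiol, against 5.83, 6.60 and 6.08 CPM with DMSO. That call was lost without PD-plug estradiol replicate 1 or 3, Col-0 estradiol replicate 1 or 2, Col-0 DMSO replicate 3 (adjusted p up to 0.0669), and in the STAR matrix SWEET1 kept it with a difference of -1.40. No other STP gene of 7 tested, and no invertase of 8 tested, differed from the Col-0 effect in either line at any time.

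Of the other SUC genes 5 of 8 could be tested, and at 72 h in icals3m 2 of them were higher against the Col-0 effect while SUC2 was lower. Over all genes, 11.3% differed in either direction in that comparison. SUC1, a sucrose carrier close in sequence to SUC5, had 53.8, 74.4 and 78.6 CPM with estradiol, against 44.6, 39.7 and 39.9 CPM with DMSO in icals3m at 48 h, while Col-0 had 39.1, 40.9 and 40.8 CPM with estradiol, against 63.8, 42.6 and 76.5 CPM with DMSO (log2 difference 1.33 ± 0.22 SE, adjusted p = 1.51e-05 by edgeR). The difference from the Col-0 effect passed at 72 h too (1.07 ± 0.22, adjusted p = 0.000399). SUC3 had a higher effect than Col-0 at 12 h in icals3m (0.79 ± 0.18) and in PD-plug (0.78 ± 0.18). In Col-0 it had 11.1, 14.6 and 11.9 CPM with estradiol, against 25.0, 23.9 and 24.5 CPM with DMSO at that time, and in icals3m 17.4, 14.6 and 15.6 CPM with estradiol, against 19.2, 20.2 and 14.4 CPM with DMSO. The icals3m value was not past the test in the STAR matrix (adjusted p = 0.607) or without icals3m DMSO replicate 3 (adjusted p = 0.0694), whereas that of SUC1 at 48 h was.

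Of the plastid carriers all 7 were tested, and against Col-0 the icals3m effect was lower for 3 at 48 h (XPT, MEX1 and pSuT) and for 3 at 72 h (MEX1, pGlcT and pSuT). Over all genes, 13.4% differed at 48 h and 11.3% at 72 h in either direction, and 6.29% were lower at 72 h. MEX1, the maltose exporter of starch breakdown, had 51.3, 45.4 and 43.6 CPM with estradiol, against 59.4, 60.2 and 55.1 CPM with DMSO in icals3m at 48 h, while Col-0 had 66.9, 60.2 and 61.1 CPM with estradiol, against 52.2, 57.2 and 49.5 CPM with DMSO (log2 difference -0.56 ± 0.11 SE, adjusted p = 0.000283 by edgeR). In the STAR matrix the MEX1 difference was -0.87 and missed the threshold (adjusted p = 0.0618). XPT, a sugar phosphate carrier, was lower against Col-0 in PD-plug at 48 h (log2 difference -0.56 ± 0.11 SE, adjusted p = 0.000922 by edgeR). Of the 8 other vacuolar carriers, TST1, the tonoplast sugar importer, had a lower effect at 72 h in icals3m, with 32.6, 32.8 and 32.7 CPM with estradiol, against 40.9, 46.3 and 44.3 CPM with DMSO, while Col-0 had 41.2, 42.9 and 40.5 CPM with estradiol, against 28.6, 34.8 and 36.2 CPM with DMSO (log2 difference -0.75 ± 0.15 SE, adjusted p = 0.000253 by edgeR). At 12 h the difference for TST1 had been positive (0.48 ± 0.15, adjusted p = 0.0493). Of the 12 sucrose synthase, sucrose phosphate synthase and phosphatase genes, none differed from Col-0 at 48 or 72 h in either line, and SPSC and SPP2, enzymes of sucrose synthesis, were lower in PD-plug at 12 h (-0.93 ± 0.20 and -0.42 ± 0.10). Neither call was kept in the STAR matrix (adjusted p = 0.49 for SPSC and 0.119 for SPP2).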

How the data were processed

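RNA of leaves was measured in 72 libraries. Both deposited matrices hold expected counts per gene as whole numbers. The authors' tools are named without role or order in the submitters' processing notes as FastQC 0.11.8, Trim Galore 0.5.0, cutadapt 1.7, HISAT2 2.1.0, STAR 2.5, SAMtools 1.4.1 and StringTie 1.3.3, with the build TAIR10. Which of them made which matrix, and whether counting used strand, is not given in the sources used here. Small counts that are multiples of 4 are in excess (the value 4 fills 40727 cells, 3 fills 8585 and 5 fills 10399), so that a deposited count is not taken as a tally of fragments, and the floor of 3 counts is on the deposited scale and covers counting error only.

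The PD-closure matrix was the main one, and the STAR matrix, named for a word in its file name, an alternative (18063512 to 28177578 counts per library, without its mCherry row). Columns were matched by name and groups came from the titles. R 4.3.3 with edgeR 4.0.16 and limma 3.58.1 was used: filterByExpr by group (minimum count 10, minimum total 15), TMM, and 1 quasi-likelihood fit of 24 group means over all libraries (trended dispersion, robust, 48 residual degrees of freedom, biological coefficient of variation 0.167). Benjamini-Hochberg adjustment was made within each of 29 comparisons. The SE is the log2 fold change over the square root of F. The labels speak of 3 biological replicates per group. The code was tested on simulated data.

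The 10 genes and the lists of other genes were chosen with earlier results of these data known. All 10 are named. Of each pathway list, up to 2 genes with the largest difference from the Col-0 effect past the threshold are named, and other members named with a count were chosen after their values were seen. Alternatives were the STAR matrix, DESeq2 1.42.0, RLE size factors, no filter, a replicate block, counts divided by 4, only the 6 libraries compared, and each library left out (with the dispersion trend of the full fit). Gene positions and promoters are from RefSeq's TAIR10.1, not from the authors' build, and CPM per kb uses the longest transcript there.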

Additional observations from a re-analysis of the deposited data

Results flagged for a closer look

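The 18 values below are those in which the estradiol effect of one genotype differed from that of another at the same time by a test of the difference itself (edgeR quasi-likelihood interaction contrast, adjusted p under 0.05 over all tested genes). Each is a difference of log2 fold changes with its SE. Comparisons with the same genotype share its libraries.

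Of the sucrose exporters, SWEET12 in icals3m differed from Col-0 by -0.79 ± 0.20 at 48 h and -1.02 ± 0.20 at 72 h, and from PD-plug by -0.93 ± 0.20 and -1.07 ± 0.20. SWEET11 in icals3m at 72 h differed from Col-0 by -0.57 ± 0.10 and from PD-plug by -0.64 ± 0.10. No single library left out ended these 6 calls.

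SUC2 in icals3m differed from Col-0 by -0.31 ± 0.10 at 48 h and -0.32 ± 0.10 at 72 h, and from PD-plug by -0.33 ± 0.10 at 48 h. The first was lost without icals3m estradiol replicate 1 or 3, icals3m DMSO replicate 1 or 3, Col-0 estradiol replicate 1, Col-0 DMSO replicate 1 or 3 (adjusted p up to 0.082). The second was lost without icals3m estradiol replicate 3, Col-0 estradiol replicate 2 or 3, Col-0 DMSO replicate 3 (up to 0.139). The third was lost without icals3m estradiol replicate 1 or 3, icals3m DMSO replicate 1 or 3, PD-plug estradiol replicate 2 or 3, PD-plug DMSO replicate 1 or 2 (up to 0.102).

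SWEET15 in icals3m differed from Col-0 by 2.49 ± 0.76 at 48 h, a call lost without icals3m estradiol replicate 2, Col-0 estradiol replicate 2 or 3, Col-0 DMSO replicate 1 (up to 0.138). SWEET16 in icals3m at 72 h differed from PD-plug by -2.11 ± 0.44, which no single library ended. From Col-0 SWEET16 differed by -1.38 ± 0.44, and this call was lost without icals3m estradiol replicate 3, icals3m DMSO replicate 2 or 3, Col-0 estradiol replicate 1 or 2, Col-0 DMSO replicate 1 or 2 (up to 0.104).

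STP13 in icals3m differed from Col-0 by 0.58 ± 0.17 at 12 h and 0.52 ± 0.17 at 48 h. The 12 h call was lost without icals3m estradiol replicate 1 or 3, icals3m DMSO replicate 3, Col-0 estradiol replicate 1, 2 or 3, Col-0 DMSO replicate 1 or 3 (up to 0.23), and the 48 h call without icals3m estradiol replicate 1, icals3m DMSO replicate 2 or 3, Col-0 estradiol replicate 1 or 3, Col-0 DMSO replicate 1 or 3 (up to 0.0815).

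STP4 in icals3m differed from Col-0 by 0.47 ± 0.12 at 12 h and -0.43 ± 0.12 at 48 h, and in PD-plug by 0.40 ± 0.12 and -0.38 ± 0.12. The icals3m calls were lost without icals3m DMSO replicate 3 at 12 h (adjusted p = 0.124) and without icals3m estradiol replicate 3, Col-0 estradiol replicate 3, Col-0 DMSO replicate 1 at 48 h (up to 0.0756). The PD-plug call at 12 h was lost without PD-plug estradiol replicate 1 or 3, PD-plug DMSO replicate 1 or 2, Col-0 estradiol replicate 2 or 3, Col-0 DMSO replicate 1 (up to 0.103), and that at 48 h without PD-plug estradiol replicate 1 or 3, PD-plug DMSO replicate 1 or 2, Col-0 estradiol replicate 2 or 3, Col-0 DMSO replicate 1 or 3 (up to 0.243).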

How the results depend on the processing

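Counts below are calls of the 10 genes summed over the 4 times of a comparison unless said otherwise. In the STAR matrix the estradiol effect in icals3m gave 9 calls (15 in the main fit), the difference of icals3m from Col-0 1 (11), of PD-plug from Col-0 1 (2) and of icals3m from PD-plug 3 (5). Without a filter on low counts, PD-plug from Col-0 gave 1. With DESeq2, icals3m from PD-plug gave 8. The estradiol effect in PD-plug gave 2 calls in place of 1 in the STAR matrix, with DESeq2, with RLE size factors, without a filter and with only the 6 libraries compared. Of 75 calls of single genes over all comparisons, the STAR matrix kept 49, DESeq2 73, RLE 72, no filter 68 and counts divided by 4 75, and fits restricted to the 6 libraries at hand kept 20 of 24. No called gene changed sign under any of these. The cause of the losses was not tested.

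Replicate numbers did not pair the libraries: over 36 pairs of same-numbered libraries of the 2 treatments, deviations from group means correlated at -0.08 to 0.09, and 13 pairs correlated best with their own number. With a replicate block the calls were 14 for icals3m (15 without), 1 for PD-plug, 8 for Col-0, 11 for icals3m and 2 for PD-plug against Col-0, 6 for icals3m against PD-plug (5 without), 6 and 3 for the mock comparisons of the lines with Col-0, and 24 for the mock time steps. The block ended 2 calls, both of STP13: the 72 h rise within icals3m (adjusted p = 0.0525) and the 12 h difference from Col-0 (adjusted p = 0.0519). It added 2, the icals3m differences of STP1 from Col-0 at 72 h and of SWEET11 from PD-plug at 48 h. Leaving out each library in turn gave 13 to 16, 1 to 2 and 6 to 8 calls within icals3m, PD-plug and Col-0, 7 to 12 and 1 to 3 against Col-0, 4 to 6 between the lines, 5 to 7 and 3 in the mock comparisons and 23 to 24 in the time steps.

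Counting depth limited SWEET15 and SWEET16: in the STAR matrix 21 and 4 of the 72 libraries had no count of them, and in the main matrix 10 had none of SWEET15.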
